A study of Homo sapiens with 8 samples.

Results

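Chromosome 3 was followed gene by gene in BEAS-2B, a human bronchial epithelial line immortalised in culture, to find where along its length expression shifted during nickel exposure and after its end. The deposited tables placed 1360 of their 25411 genes on this chromosome. Of these, 694 had a mean count of at least 50 reads over the 8 libraries and were mapped in order of their start, 96 had a mean of 10 to under 50, and 570 had a mean under 10, among them 288 with no read in any library. The mapped genes were selected on their mean count, and the segments described here were chosen by the measured log2 ratios along the chromosome, so segment edges and segment medians are descriptions without a test. Just under the count limit lay LINC00886 (47.4 reads on average), LOC90246 (48.9) and RPL32P3 (49.2), and just over it CCDC39 (50.5), C3orf67 (50.6) and PRRT3-AS1 (50.8). In 42 mapped genes at least 1 group had a mean under 50, and 25 of these had a mean under 50 in UT and of at least 50 in Ni-W or HCl3. No mapped gene reached 50 in a single group alone.

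RNA-Seq counts came from 4 groups of 2 libraries. UT cells were untreated. Ni-E cells had spent 6 weeks with the soluble salt NiCl2 at 100 µM and were taken at the end of the exposure. Ni-W cells had the same exposure and were then grown without nickel for more than 6 months as a population derived from 1 nickel-exposed cell, picked at random among such colonies. HCl3 cells carry the same description of exposure and cloning as Ni-W, but their labels give neither the time without nickel nor their relation to the Ni-W clone. Ni-W, and by its description HCl3, thus stand for 1 clone each, and a difference between clones and an effect of nickel cannot be told apart here. Per the labels, Ni-E came from experiment 2 and HCl3 from experiments 3 and 4, with no such number for UT and Ni-W, so experiment and group cannot be told apart either. The labels name the second library of each group only as a repeat, and the methods speak of biological replicates without naming separate cultures, so adjusted P values measure the spread between such libraries, which may be technical.

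Total counts ranged from 26383920 to 45692298 reads per library, and the 3 reads used as a floor are a limit of counting error only. The share of counts on chromosome 3 was 6.84 and 7.08% (UT), 6.71 and 6.69% (Ni-E), 7.12 and 7.21% (Ni-W) and 6.36 and 6.22% (HCl3). The keratins KRT8, KRT18 and KRT7 ranged from 144 to 481 RPKM (reads scaled to transcript length and to the mapped reads of a library) in the 8 libraries, whereas the epithelial markers EPCAM (0.95 to 1.79) and CDH1 (0.01 to 0.11) were low and the mesenchymal genes VIM (816 to 1527) and CDH2 (54.1 to 83.5) were high. The blood genes PTPRC, CD3E and HBB and the endothelial genes PECAM1 and VWF did not exceed 0.1 RPKM. In bulk RNA, fewer cells with a transcript and less transcript per cell cannot be told apart.

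Chromosome 3 is one of the longest human chromosomes, with arms of similar length. Its short arm carries a dense group of tumour suppressor and chromatin genes, such as VHL, BAP1, SETD2 and PBRM1, and is often lost in lung and kidney cancers, while its distal long arm carries PIK3CA, SOX2 and TP63 and is often gained in squamous cancers. Between them lie genes of axon guidance, cell adhesion and extracellular matrix, ROBO1, EPHA3 and COL8A1 among them. Genes on the same stretch of a chromosome share replication timing and chromatin domains, so levels were read both for single genes and for runs of neighbours. DNA was not measured in the data analysed here.

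The promoters of the 3 genes with the largest increases in washed-out cells and of the gene with the largest decrease differed in CG content. RefSeq promoters (300 bases around the start of the transcript, GRCh38.p14, written 5′ to 3′ on the strand of the gene) are shown for ROBO1 (chr3:79767949-79768248, minus strand), CLSTN2 (chr3:139934935-139935234, plus strand), SLC9A9 (chr3:143848419-143848718, minus strand) and BCHE (chr3:165837374-165837673, minus strand), with each CG dinucleotide in capitals because CG content separates the main classes of human promoter.
ROBO1: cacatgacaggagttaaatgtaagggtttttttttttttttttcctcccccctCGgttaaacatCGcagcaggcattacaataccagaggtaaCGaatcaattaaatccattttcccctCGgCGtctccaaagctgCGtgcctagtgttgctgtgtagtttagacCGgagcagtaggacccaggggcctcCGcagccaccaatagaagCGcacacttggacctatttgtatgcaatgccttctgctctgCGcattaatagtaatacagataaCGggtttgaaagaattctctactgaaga
CLSTN2: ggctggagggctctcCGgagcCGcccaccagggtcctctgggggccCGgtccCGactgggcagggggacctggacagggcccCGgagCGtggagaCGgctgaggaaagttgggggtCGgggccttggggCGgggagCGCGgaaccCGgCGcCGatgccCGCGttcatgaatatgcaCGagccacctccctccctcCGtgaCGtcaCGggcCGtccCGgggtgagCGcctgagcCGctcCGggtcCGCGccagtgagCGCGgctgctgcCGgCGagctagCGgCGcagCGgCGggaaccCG
SLC9A9: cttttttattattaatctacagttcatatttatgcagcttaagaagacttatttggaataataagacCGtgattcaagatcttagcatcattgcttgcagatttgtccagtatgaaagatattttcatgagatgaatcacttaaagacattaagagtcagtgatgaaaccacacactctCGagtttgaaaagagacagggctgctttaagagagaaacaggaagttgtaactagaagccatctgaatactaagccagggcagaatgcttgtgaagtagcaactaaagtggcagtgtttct
BCHE: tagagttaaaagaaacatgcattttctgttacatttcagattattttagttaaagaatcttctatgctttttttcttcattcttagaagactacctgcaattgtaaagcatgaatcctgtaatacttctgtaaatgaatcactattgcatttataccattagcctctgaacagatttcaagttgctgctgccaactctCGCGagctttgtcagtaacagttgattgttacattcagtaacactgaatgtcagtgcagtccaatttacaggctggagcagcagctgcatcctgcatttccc
The CLSTN2 promoter held 36 CG dinucleotides, a number reached by 12.7% of the 35116 promoters in the table, and the ROBO1 promoter held 11, a number reached by 54.7%. SLC9A9 and BCHE had 2 each, which 89.0% of promoters reach or exceed. Both the ROBO1 and the CLSTN2 stretch contained GCGTG, one of the letter strings searched on both strands as the core of the hypoxia response element (ACGTG or GCGTG), and the stretches of SLC9A9 and BCHE contained neither. One of these strings was present in 48.4% of all promoters, and in 68.5, 72.9 and 62.9% of the promoters of mapped genes in the 3 blocks of chromosome 3 described next, whose promoters also held a median of 28, 25 and 27 CG dinucleotides against 14 in the whole table. Each string contains a CG, the part of CG content in these shares was not tested, and no difference between blocks is drawn from them. Mapped genes were selected on their mean count, whereas the promoters of the whole table were not. Promoters of expressed genes elsewhere in the genome were not counted as a set. Whether the differences from the whole table are particular to chromosome 3 was thus not tested.

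Along the chromosome, washed-out cells differed from UT in long blocks, while nickel-exposed cells gave a single segment. For each mapped gene the log2 ratio of group means was taken from normalised counts and expressed relative to the median of all 12055 genes of the genome with a mean count of at least 50, and the ordered ratios were divided into segments of at least 15 genes. A segment was termed shifted where its median was at least 0.20 from the genome median. Ni-E against UT gave 1 segment, with a median of -0.02 over all 694 genes. Ni-W against UT gave 3 segments, and only the middle one was shifted. HCl3 against UT also gave 3 segments, and only the first, on the short arm, was shifted. The median of its distal genes, -0.17 with all libraries, passed the limit without UT replicate 1 (-0.24) or HCl3 replicate 1 (-0.22). HCl3 against Ni-W gave 2 segments, of which the first was shifted and covered the short arm together with most of the middle of the chromosome.

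**Figure D1:**
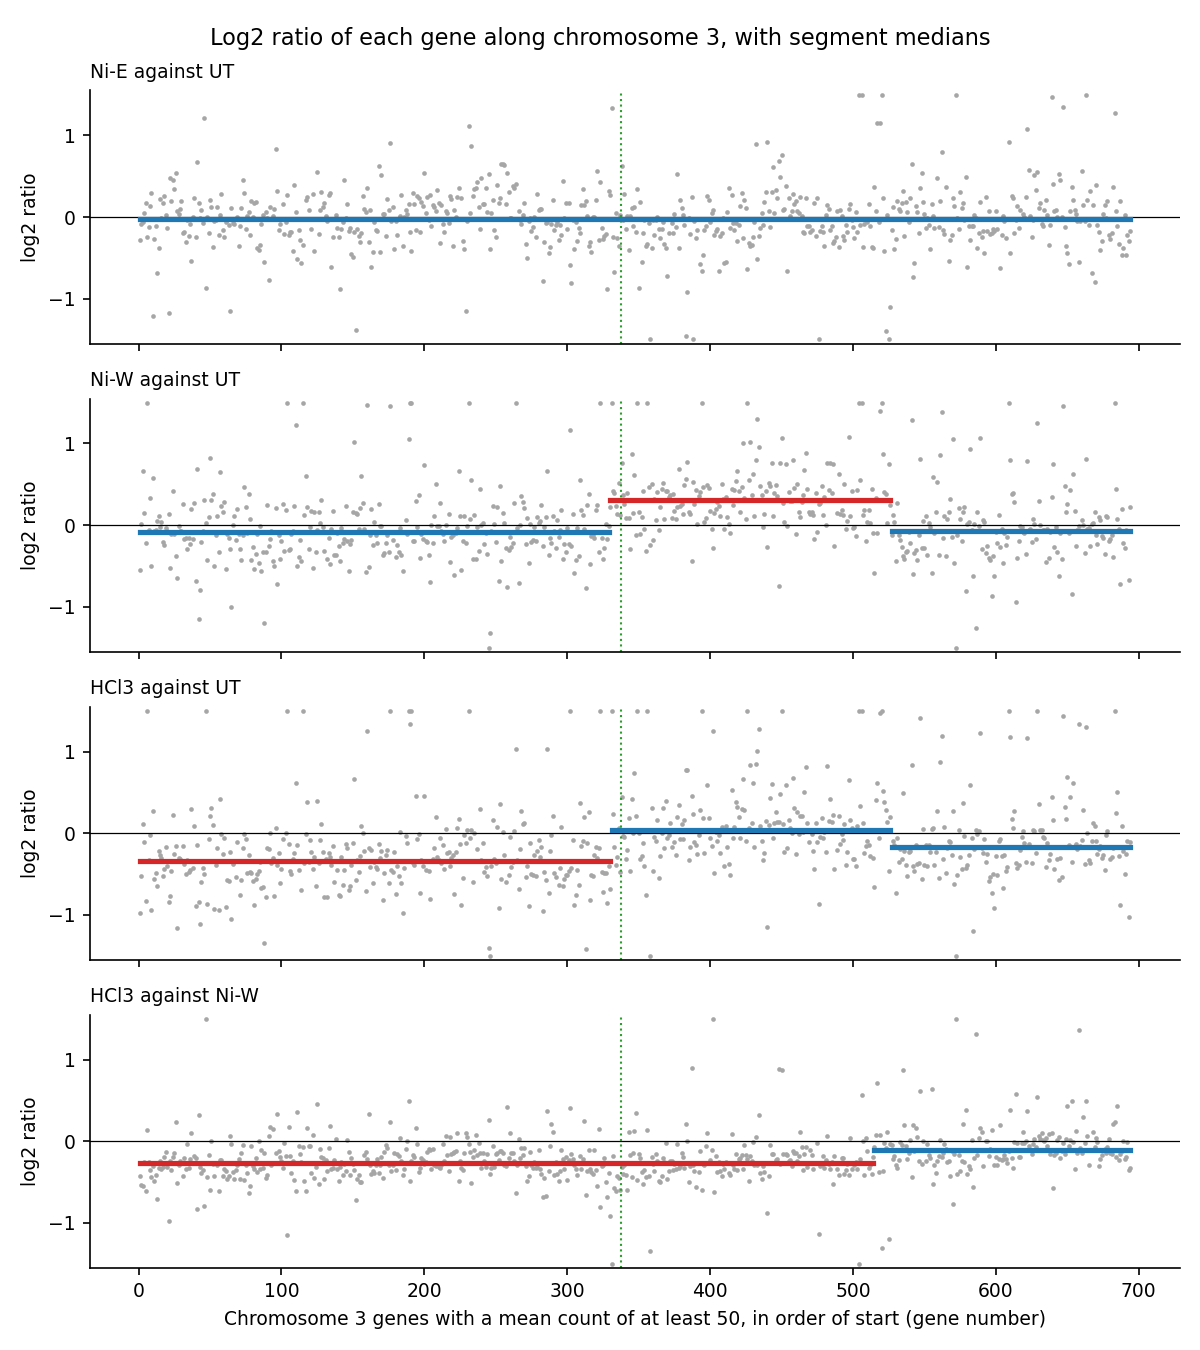
Log2 ratio of each of the 694 mapped genes (grey points, limited to 1.5 either way) against gene number along chromosome 3 for 4 comparisons, with segment medians as lines (red where shifted, blue where not) and a dotted green line at the gene-free stretch that spans the centromere. The raised middle segment (0.31) appears in Ni-W against UT, the lowered first segment (-0.34) in HCl3 against UT, and 1 unshifted segment (-0.02) in Ni-E against UT.

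The segments of Ni-W against UT were used as 3 blocks for all further values. The short-arm block ran from TRNT1 to FAM86DP (hg19 chr3:3168600-75484266, 329 mapped genes), the middle block from LINC00960 to CPA3 (chr3:75721542-148614872, 197 genes) and the distal block from GYG1 to LMLN (chr3:148709195-197770591, 168 genes). The middle block began on the short arm and crossed the centromere, which lies in the widest stretch without a listed gene (chr3:89531285-93591880, 4.06 Mb, between EPHA3 and PROS1). The blocks also differed in features that had no part in their choice. Mapped genes numbered 4.55 per Mb in the short-arm block, 2.70 in the middle block and 3.42 in the distal block, and their median transcript GC content was 48.7, 42.5 and 42.7%, against 47.7% over all expressed genes. Genes lay on both strands in nearly equal numbers (165 plus and 164 minus, 99 and 98, and 81 and 87).

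In Ni-W cells the middle block stood above UT in both libraries. Relative to the mean of the UT libraries, the median log2 level of its 197 genes was -0.04 and 0.04 (UT), -0.06 and -0.09 (Ni-E), 0.31 and 0.32 (Ni-W), and 0.05 and -0.0028 (HCl3). The Ni-W libraries lay apart from the other 6, which stayed between -0.09 and 0.05. The Ni-W median corresponded to 1.24-fold (0.31 ± 0.06, SD from the replicates, n = 2 libraries per group), and 168 of the 197 genes (85.3%) had a ratio above the genome median, with quartiles of 0.11 and 0.49 against -0.23 and 0.30 over all expressed genes. The shift was present in genes of either strand (0.27 on the plus and 0.37 on the minus strand), in all terciles of expression (0.23 to 0.40) and in all terciles of GC content (0.26 to 0.40). These subsets are parts of the 197 genes whose ratios set the block, so their medians describe the shift and do not test it. Genes with mean counts of 10 to under 50, which had not set the edges, did not keep to the blocks in Ni-W against UT, with medians of -0.0004 over 41 short-arm genes, 0.50 over 23 middle genes and 0.75 over 32 distal genes. In HCl3 against UT the medians of these genes were -0.18, 0.40 and 0.35. Ratios of these genes were centred on the median of the 1801 genes of the genome in this count range, a different reference from that of the blocks. In HCl3 against UT 43.9% of the short-arm ones lay above that median.

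In HCl3 cells the short-arm block stood below UT in both libraries. Its median over 329 genes was -0.0039 and 0.0039 (UT), -0.01 and -0.0033 (Ni-E), -0.11 and -0.08 (Ni-W), and -0.35 and -0.33 (HCl3). The HCl3 libraries lay lower than the other 6, and the Ni-W libraries lay between them and UT without reaching the limit for a shift. The HCl3 median against UT was 0.791-fold (-0.34 ± 0.01, SD), and 57 of the 329 genes (17.3%) had a ratio above the genome median. Against the Ni-W libraries the short-arm block was 0.835-fold (-0.26 ± 0.01) and the middle block 0.832-fold (-0.27 ± 0.03), so that 41 of 329 and 24 of 197 genes had a ratio above the genome median. The size of the shift moved with transcript GC content. In HCl3 against UT it was -0.47 in the tercile of short-arm genes with the lowest GC content, -0.36 in the middle tercile and -0.20 in the highest. After smooth trends with GC content and length had been removed from each library, the short-arm median was -0.36 and the middle block of Ni-W was 0.31.

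**Figure D2:**
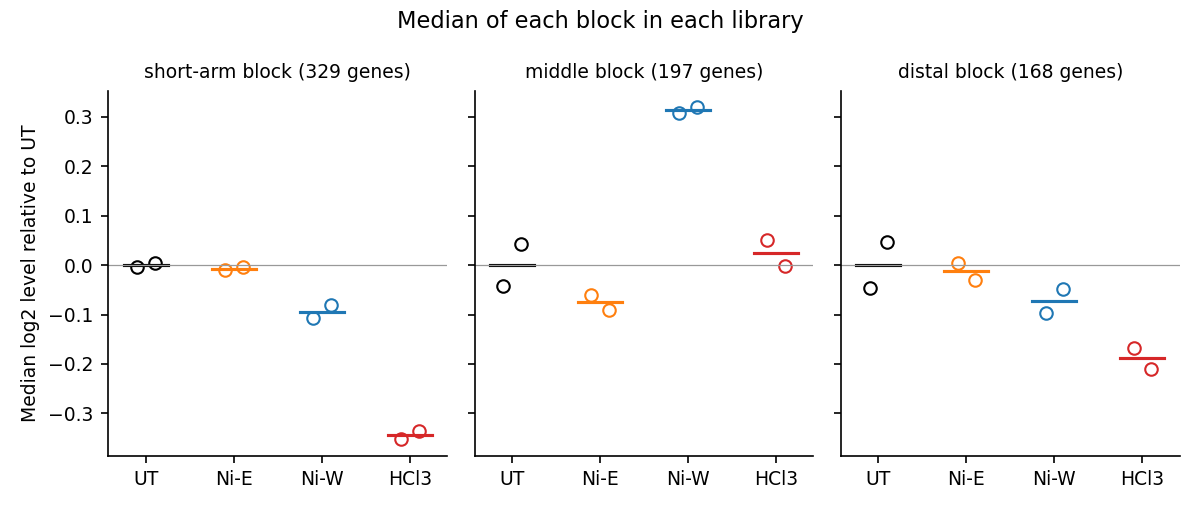
Median log2 level of each block relative to UT (y axis) in each of the 8 libraries (open points, 2 per group, with a line at their mean). Only the Ni-W libraries rise above 0.30 in the middle block, and the HCl3 libraries are lowest in the short-arm block (-0.35 and -0.33) and in the distal block (-0.17 and -0.21).

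The distal block carried smaller differences. Its median over 168 genes was -0.05 and 0.05 (UT), 0.0044 and -0.03 (Ni-E), -0.10 and -0.05 (Ni-W), and -0.17 and -0.21 (HCl3). The Ni-W libraries lay just under those of UT, within the distance between the UT libraries, while both HCl3 libraries lay under the other 6. Over the whole chromosome the HCl3 median against UT was -0.19, the lowest of the 22 autosomes, whose highest was 0.36. It was -0.22 against Ni-W, the second lowest, and in Ni-W against UT it was 0.01 and had rank 15 from the lowest.

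Edges of the middle block taken from each pair of libraries on its own fell within 1 gene of each other. When edges were taken from the first libraries of Ni-W and UT alone, the raised segment ran from LINC00960 to AGTR1 with a median of 0.35, and the repeat libraries gave 0.28 over the same genes. Edges from the repeat libraries ran from LINC00960 to CPA3 (0.28), and the first libraries gave 0.35 there. In HCl3 against UT, the first libraries placed the end of the lowered segment at LINC00960 (-0.32, and -0.34 in the repeat libraries) and the repeat libraries placed it at C3orf38 (-0.34, and -0.32 in the first), on the centromere side of ROBO1. C3orf38 is the last mapped gene before PROS1, where the gene-free stretch that spans the centromere ends. Whether the lowered segment ends before ROBO1 or at the centromere is thus not fixed. Each HCl3 pair gave 2 segments. The second edge of that comparison was found with all 4 libraries and without UT replicate 1, UT replicate 2 or HCl3 replicate 1, but not without HCl3 replicate 2. With all 4 its place was tied between the gap from PLSCR1 to AGTR1 and the gap from CPA3 to GYG1, of which the later one is given. The edge in HCl3 against Ni-W was the least fixed, between SLC25A36 and PXYLP1 (start at 140950667) from the first libraries and between MCCC1 and LAMP3 (start at 182840003) from the repeat libraries. In Ni-E against UT the first libraries gave 1 segment, whereas the repeat libraries gave 3, with a segment from PLXNB1 to SMIM4 at 0.20 that measured 0.05 in the first libraries.

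**Figure D3:**
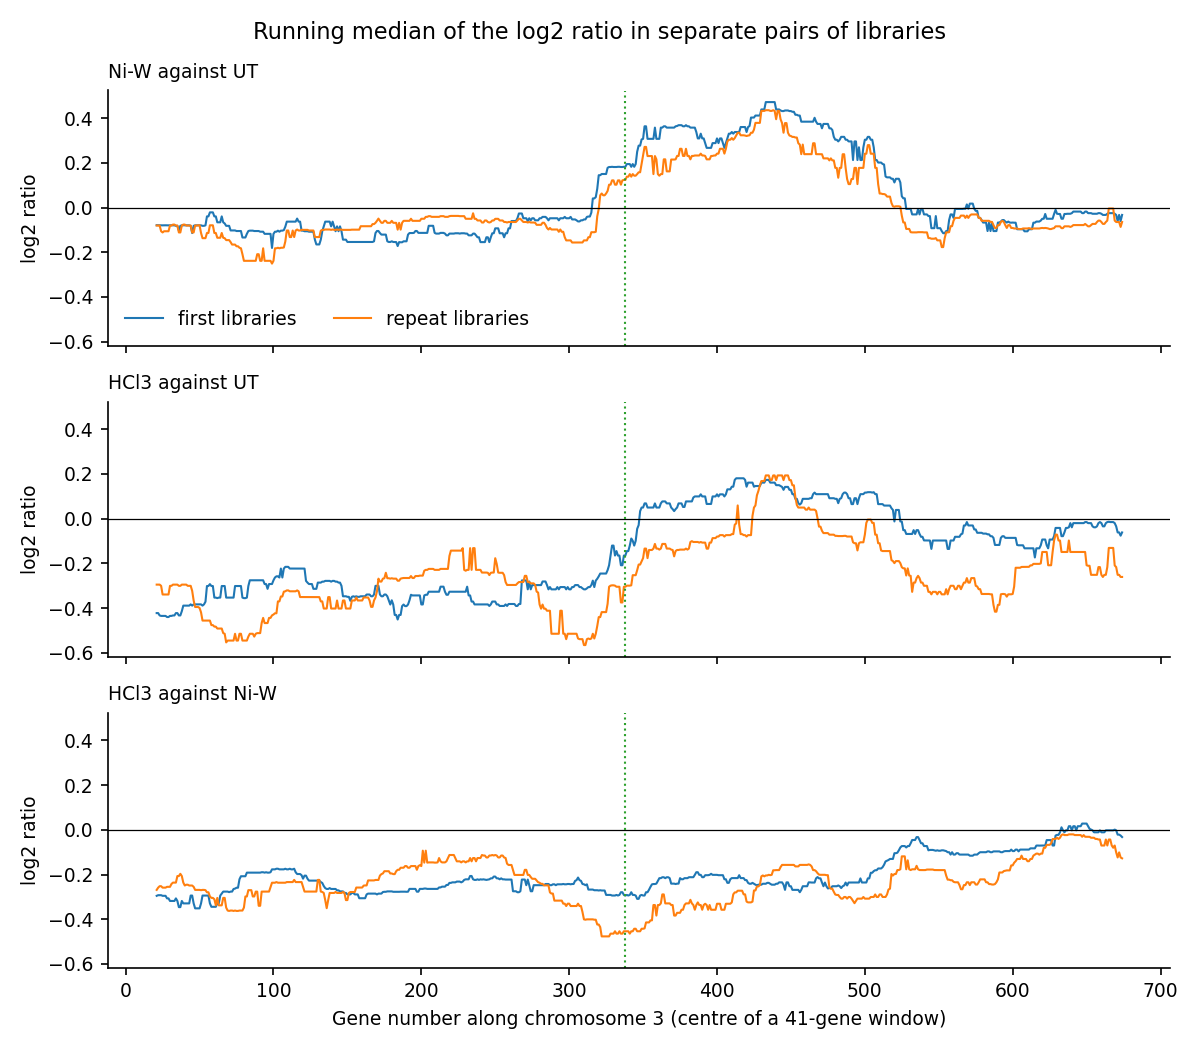
Running median over 41 genes of the log2 ratio (y axis) against gene number for the first libraries (blue) and the repeat libraries (orange), which share no library, in 3 comparisons, with the centromere as a dotted line. In Ni-W against UT the curves have the same sign in 642 of 654 windows, in HCl3 against UT in 525 and in HCl3 against Ni-W in 638.

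The same blocks appeared without the UT libraries. Against Ni-E, Ni-W gave 3 segments, with the raised one from ROBO1 to CPA3 at 0.33, and HCl3 gave 2, with the lowered one from TRNT1 to LINC00960 at -0.32. Ni-W against UT and HCl3 against Ni-E share no library, whereas the comparisons of Ni-W and HCl3 with UT share both UT libraries. Long shifts were not particular to chromosome 3. Of 20 windows of 10 Mb on it with at least 6 genes, 4 were at or above 0.20 in Ni-W against UT, and 53 of 259 windows on other autosomes (20.5%) were too. In HCl3 against UT, 12 of the 20 windows were at or below -0.20, against 31 of 259 (12.0%) elsewhere, and in HCl3 against Ni-W 13 of 20, against 22 of 259 (8.49%). In Ni-E against UT 1 of the 20 windows was, against 11 of 259 (4.25%).

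The edges of the middle block in Ni-W against UT lay between close neighbours, whereas the first edge in HCl3 against UT, between LINC00960 and ROBO1, spanned 2.92 Mb. This contrast rests on LINC00960 alone. Without UT replicate 2 or Ni-W replicate 1, and against Ni-E, the first Ni-W edge also fell between LINC00960 and ROBO1. The first edge of the middle block fell between the pseudogene FAM86DP and the noncoding gene LINC00960, 0.237 Mb apart, with a step of 0.40. In the 15 mapped genes before it, 5 had a Ni-W ratio above the genome median (median -0.14), and in the 15 after it 14 did (0.26). The second edge fell between CPA3, a carboxypeptidase of mast cells, and GYG1, which primes glycogen synthesis, 0.094 Mb apart, with a step of -0.38. The 15 genes before it had a median of 0.33, with 12 above the genome median, and the 15 after it a median of -0.18, with 4 above. LINC00960 itself had a log2 ratio of 0.23 in Ni-W against UT and -0.69 in HCl3 against UT. It measured 5.08 and 4.19 RPKM in UT, 6.02 and 4.88 (Ni-W) and 3.11 and 2.77 (HCl3), where the change against Ni-W was called (log2 fold change -0.92 ± 0.22 (SE), adjusted P value 0.000511). The edge in HCl3 against Ni-W fell between ATR, a kinase of the replication checkpoint, and PLS1, an actin-bundling protein.

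Single genes were tested with DESeq2 over all genes of each comparison and called at an adjusted P value under 0.05 and at least 1.5-fold. In Ni-E against UT 43 of 805 chromosome 3 genes were called, 22 higher and 21 lower, where 5.80% of all 14478 genes tested were called, 3.75% higher and 2.05% lower. In Ni-W against UT 131 of 881 were called, 99 higher and 32 lower (all genes 15.7%, with 10.9% higher and 4.83% lower). In HCl3 against UT 159 of 874 were called, 74 higher and 85 lower (all genes 14.8%, with 11.1% higher and 3.74% lower). In HCl3 against Ni-W 47 of 842 were called, 16 higher and 31 lower (all genes 4.77%, with 3.10% higher and 1.66% lower). The calls and the segments rest on the same contrasts, so these shares describe the blocks and do not test them.

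The calls were also counted by block. In the middle block 42 of 242 genes tested were higher in Ni-W than in UT and 3 were lower. At an adjusted P value under 0.05 with any fold, 95 of the 242 (39.3%) were higher and 4 lower, where 17.5% of all genes were higher and 13.6% lower. In the short-arm block 69 of 411 genes were called lower in HCl3 than in UT and 20 higher, and at any fold 183 (44.5%) were lower and 25 higher, where 14.3% of all genes were lower and 17.1% higher. In HCl3 against Ni-W at any fold, 136 of 394 short-arm genes (34.5%) and 100 of 234 middle genes (42.7%) were lower, against 34 of 214 distal genes (15.9%), with a background of 8.10% lower and 8.45% higher. Ni-E against UT had 39 chromosome 3 genes higher and 64 lower at any fold, 4.84 and 7.95% against backgrounds of 6.08 and 5.52%. When the median of the segment of each gene was removed in the fit, the 85 genes called lower in HCl3 against UT became 24, all among the 85, and the 74 higher became 93. In Ni-W against UT the 99 genes called higher became 84, of which 78 were shared. In HCl3 against Ni-W 31 lower became 14 and 16 higher became 29. The medians removed came from the same contrasts. Fewer calls in the direction of a shift and more in the other thus follow from the subtraction and test nothing.

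**Figure D4:**
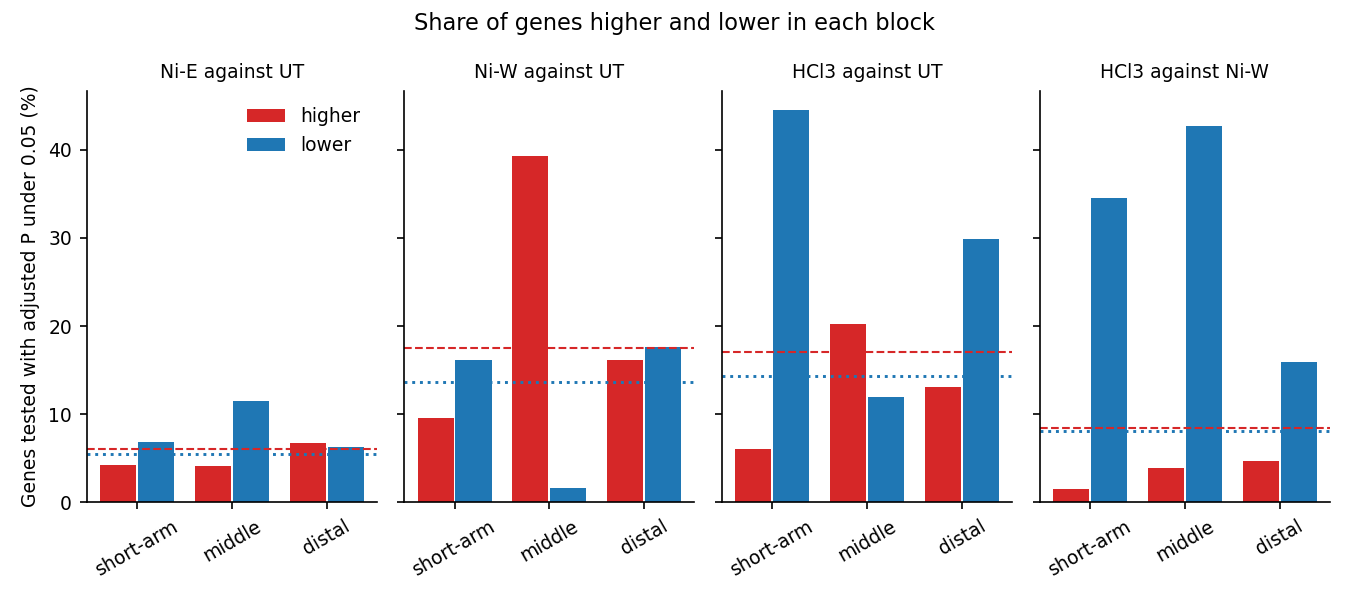
Percent of tested genes with an adjusted P value under 0.05 at any fold (y axis) in the 3 blocks, higher in red and lower in blue, for 4 comparisons, with the share over all genes as a dashed red line (higher) and a dotted blue line (lower). The tallest bars are lower genes of the short-arm block in HCl3 against UT (44.5%), lower genes of the middle block in HCl3 against Ni-W (42.7%) and higher genes of the middle block in Ni-W against UT (39.3%).

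The largest increases in Ni-W were in genes with low levels in UT, and most of these lay in the middle block. Such genes had UT means under 50 reads and met the count limit through the other groups. Their low UT levels thus partly follow from the selection. ROBO1 (chr3:78646388-79817059), the receptor for SLIT guidance ligands, had no reads in either UT library and 1 and 2 reads in Ni-E, while it measured 5.44 and 5.49 RPKM in Ni-W and 1.47 and 1.25 (HCl3). Set against a floor of 3 reads per library, Ni-W cells had at least 451-fold more than UT (adjusted P value 5.23e-17) and HCl3 cells at least 111-fold more (4.38e-12). HCl3 cells had less of it than Ni-W cells (log2 fold change -2.02 ± 0.12, 9.79e-58). The groups did not overlap, and the order from UT and Ni-E through HCl3 to Ni-W held in each library. LOC101927374 lies within it on the opposite strand, and as no source says whether strand entered the counting, reads of such pairs cannot be told apart.

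CLSTN2 (chr3:139654027-140286919), a synaptic protein of the cadherin superfamily, measured 0 in both UT libraries, 0.01 and 0.03 (Ni-E), 1.07 and 1.09 (Ni-W) and 0.35 and 0.27 (HCl3). Its rise over UT was at least 59.3-fold in Ni-W (adjusted P value 5.01e-10) and at least 17.0-fold in HCl3 (1.93e-06), with the antisense gene CLSTN2-AS1 on its opposite strand. SLC9A9 (chr3:142984064-143567373), a sodium/proton exchanger of endosomes, measured 0.01 and 0 (UT), 0.10 and 0.12 (Ni-E), 1.05 and 0.82 (Ni-W) and 0.37 and 0.38 (HCl3). Its increase was at least 38.3-fold in Ni-W (adjusted P value 6.18e-07) and at least 15.2-fold in HCl3 (0.000102), and SLC9A9-AS1 overlaps it on the other strand. Both genes thus had the order of ROBO1, highest in Ni-W and lower in HCl3, where the change against Ni-W was called for CLSTN2 (log2 fold change -1.80 ± 0.28, adjusted P value 7.31e-09) and for SLC9A9 (-1.33 ± 0.32, 0.00058). The SLC9A9 call in HCl3 against Ni-W was lost without Ni-W replicate 1 or either HCl3 library.

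COL8A1 (chr3:99357440-99515577), a chain of type VIII collagen, measured 0.43 and 0.38 RPKM in UT, 0.48 and 0.60 (Ni-E), 7.21 and 6.67 (Ni-W) and 5.18 and 4.93 (HCl3). Both washed-out groups lay above the other 4 libraries, with log2 fold changes against UT of 4.08 ± 0.23 in Ni-W (adjusted P value 3.66e-66) and 3.60 ± 0.24 in HCl3 (3.82e-48). Outside the middle block, EIF4E3 (chr3:71728440-71803924), a cap-binding protein, rose from 0.18 in both UT libraries to 1.48 and 1.74 (Ni-W) and 1.01 and 0.86 (HCl3). Its log2 fold change was 3.17 ± 0.28 in Ni-W (adjusted P value 7.55e-27) and 2.36 ± 0.32 in HCl3 (3.70e-12). LAMP3 (chr3:182840003-182880667), a lysosomal membrane protein of the distal block, measured 0.16 in both UT libraries, 0.35 and 0.30 (Ni-E), 1.32 and 1.43 (Ni-W) and 1.18 and 1.38 (HCl3). The washed-out groups overlapped with each other and not with UT (log2 fold change 2.92 ± 0.39 in HCl3, adjusted P value 2.75e-12).

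The largest decrease in both washed-out groups was in BCHE (chr3:165490692-165555253), which encodes butyrylcholinesterase. It measured 1.76 and 1.72 RPKM in UT, 8.56 and 9.94 (Ni-E), 0 and 0.01 (Ni-W) and 0.02 and 0.06 (HCl3), so that it rose under nickel and was near 0 in washed-out cells. Ni-E cells had a log2 fold change of 2.35 ± 0.19 (adjusted P value 2.38e-31), Ni-W cells were at least 60.4-fold lower than UT cells (3.36e-08), and the log2 fold change in HCl3 was -5.54 ± 0.61 (5.48e-18). BCHE lies in the distal block, whose medians in Ni-W and HCl3 against UT were -0.07 and -0.17, far smaller than its own change. MAPKAPK3 (chr3:50654562-50686728), a kinase activated by the p38 pathway, measured 16.8 and 16.6 (UT), 27.7 and 21.9 (Ni-E), 5.27 and 5.26 (Ni-W) and 6.22 and 6.51 (HCl3). Its log2 fold change in Ni-E was short of 1.5-fold (0.52 ± 0.15, adjusted P value 0.00672), and the gene fell in Ni-W (-1.70 ± 0.13, 2.39e-34) and HCl3 (-1.44 ± 0.12, 7.30e-29).

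Further decreases in both washed-out groups were in DOCK3, an exchange factor for the GTPase RAC, and SLC4A7, a sodium bicarbonate transporter, both on the short arm. DOCK3 (chr3:50712672-51421629) measured 0.50 and 0.53 (UT), 0.22 and 0.19 (Ni-W) and 0.15 and 0.16 (HCl3), so that on the log2 scale it fell by 1.35 ± 0.31 for Ni-W (adjusted P value 0.000101) and by 1.77 ± 0.31 for HCl3 (2.25e-07). SLC4A7 (chr3:27414212-27525911) fell from 15.4 and 18.6 in UT to 6.87 and 7.97 in Ni-W (-1.23 ± 0.13, 1.20e-19) and was 7.32 and 6.27 in HCl3 (-1.38 ± 0.12, 1.18e-27). Neither gene was called in HCl3 against Ni-W. KBTBD8 (chr3:67048727-67061632), an adaptor of a cullin ubiquitin ligase, fell in HCl3 from 1.23 and 1.69 in UT to 0.57 and 0.53 (-1.46 ± 0.26, 4.93e-07).

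**Figure D5:**
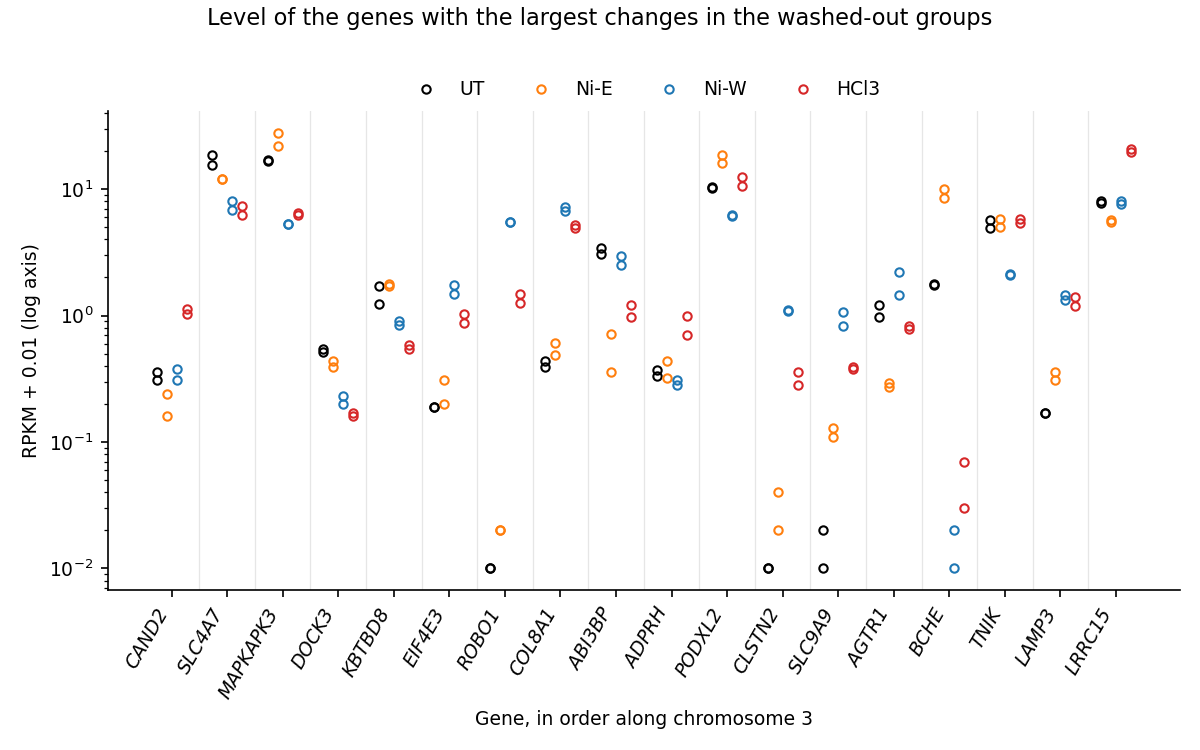
RPKM plus 0.01 on a log axis for the 18 genes with the largest called changes in the 3 comparisons of washed-out groups, in their order along chromosome 3, with 1 open point per library and 1 colour per group. ROBO1, CLSTN2 and SLC9A9 are highest in Ni-W, lower in HCl3 and lowest in UT, while BCHE is highest in Ni-E and near 0 in both washed-out groups.

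Between the washed-out groups, the largest increases in HCl3 were in CAND2, ADPRH, LRRC15, TNIK and PODXL2, of which only TNIK and PODXL2 were called in Ni-W against UT. CAND2 (chr3:12838171-12876313), of the family of cullin-associated proteins, measured 0.30 and 0.35 RPKM in UT, 0.30 and 0.37 (Ni-W) and 1.01 and 1.12 (HCl3), a log2 fold change of 1.74 ± 0.29 against Ni-W (adjusted P value 6.25e-08). LRRC15 (chr3:194075976-194090472), a leucine-rich repeat membrane protein, measured 8.05 and 7.70 (UT), 5.66 and 5.43 (Ni-E), 7.97 and 7.67 (Ni-W) and 19.6 and 20.8 in HCl3 (1.35 ± 0.08, 8.31e-55). ADPRH, a hydrolase of ADP-ribosylated arginine, was at 0.27 and 0.30 (Ni-W) and 0.98 and 0.69 in HCl3 (1.56 ± 0.36, 0.000334), a call lost without Ni-W replicate 1 or HCl3 replicate 1. All 3 had HCl3 libraries above the other 6. TNIK (chr3:171064723-171178197), a kinase of the WNT pathway, differed from them, since it was lower in Ni-W (2.09 and 2.13) than in UT (4.87 and 5.63), Ni-E (5.74 and 5.04) and HCl3 (5.79 and 5.42). Its log2 fold change was -1.30 ± 0.17 in Ni-W against UT (adjusted P value 2.59e-13) and 0.01 ± 0.14 in HCl3 against UT (0.970). PODXL2, a sialomucin that binds selectins, was also lower in Ni-W than in HCl3, with 6.08 and 6.24 against 10.6 and 12.4 (0.88 ± 0.13, 2.45e-09).

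ABI3BP and AGTR1 were lowest in Ni-E. ABI3BP (chr3:100468179-100712334), an extracellular matrix protein, measured 3.39 and 3.08 RPKM in UT, 0.35 and 0.71 (Ni-E), 2.97 and 2.52 (Ni-W) and 1.20 and 0.97 (HCl3). It was called lower for Ni-E (-2.66 ± 0.27, adjusted P value 8.90e-20) and for HCl3 (-1.64 ± 0.19, 1.38e-15) and not in Ni-W (-0.27 ± 0.17, 0.247), and HCl3 was also lower than Ni-W (-1.36 ± 0.19, 5.99e-11). AGTR1 (chr3:148447967-148460790), the type 1 receptor of angiotensin II, measured 0.96 and 1.20 (UT), 0.26 and 0.28 (Ni-E), 1.44 and 2.20 (Ni-W) and 0.81 and 0.77 (HCl3). It fell in Ni-E (-2.08 ± 0.47, 0.000301) and was lower in HCl3 than in Ni-W (-1.21 ± 0.31, 0.00124). The AGTR1 calls were lost without 1 of several libraries, namely UT replicate 2 or Ni-E replicate 1 for Ni-E against UT, and Ni-W replicate 2 or either HCl3 library for HCl3 against Ni-W.

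While nickel was present, the largest increases on the chromosome were in PXYLP1, BCHE, FAM43A, ETV5 and ST6GAL1. PXYLP1 (chr3:140950667-141013745), a phosphatase of proteoglycan synthesis, measured 0.32 and 0.40 RPKM in UT, 2.09 and 1.82 (Ni-E), 1.30 and 1.32 (Ni-W) and 1.91 and 2.00 (HCl3). It stayed above UT in each group, the log2 fold change being 2.40 ± 0.32 for Ni-E (adjusted P value 1.41e-11), 1.85 ± 0.34 for Ni-W (6.34e-07) and 2.41 ± 0.29 for HCl3 (1.59e-14). ST6GAL1, a sialyltransferase, was 0.68 and 0.59 (UT) and between 1.56 and 1.91 in the other 6 libraries, and it rose in Ni-E (1.34 ± 0.26, 1.70e-05), Ni-W (1.43 ± 0.25, 1.13e-07) and HCl3 (1.41 ± 0.25, 2.02e-07). ETV5, a transcription factor of the ETS family, was called in Ni-E, where its libraries differed (24.8 and 15.3, against 6.18 and 7.83 in UT), with a log2 fold change of 1.46 ± 0.39 (0.00415). Its call was lost without either UT library. FAM43A measured 0.26 and 0.13 (UT) and 0.83 and 0.69 in Ni-E (1.90 ± 0.50, 0.00286). Besides ABI3BP and AGTR1, the largest decreases included those of WDR52 (-1.59 ± 0.36, 0.000355) and of the long noncoding RNA LINC01279 (-1.48 ± 0.36, 0.000999). Of these changes in Ni-E, those of FAM43A (UT replicate 2 or either Ni-E library), ST6GAL1 (Ni-E replicate 1), WDR52 (either UT library or Ni-E replicate 1) and LINC01279 (each library in turn) were also lost without the libraries given.

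Lists of chromosome 3 genes by function gave counts to set beside the blocks. They were chosen with earlier results of these data known, so their counts describe the members and do not test a function. Of 24 tumour suppressor and chromatin genes of the short arm, 22 were mapped. In HCl3 against UT 0 of the 24 tested were called with DESeq2 or edgeR, 13 had an unadjusted P value under 0.05 and 10 were lower at any fold, with a median of -0.20 over the mapped genes and 18 of 22 below the genome median, beside -0.34 over the whole block. At any fold 14.3% of all genes and 44.5% of the short-arm block were lower. PBRM1, a subunit of a SWI/SNF chromatin remodeller, measured 18.0 and 21.4 RPKM in UT and 15.8 and 14.4 in HCl3 (-0.44 ± 0.11, adjusted P value 0.000525). VHL, the ubiquitin ligase subunit that recognises HIF, measured 10.7 and 7.92 (UT) and 6.77 and 6.63 in HCl3 (-0.53 ± 0.15, 0.00146). The deubiquitinase BAP1 had 30.3 and 29.6 against 26.3 and 26.6 (-0.23 ± 0.09, 0.045). Each of these 3 was lower in both HCl3 libraries, and each change was under 1.5-fold. In Ni-W against UT 0 of the 24 were called with DESeq2 or edgeR, 7 had an unadjusted P value under 0.05, 2 were higher and 3 lower at any fold, and the median was -0.01. At any fold 17.5% of all genes were higher and 13.6% lower in that comparison, and 9.59 and 16.1% of the short-arm block. In Ni-E SEMA3B, a secreted guidance protein, was called higher (0.86 ± 0.17, 2.03e-05), and LIMD1 (-0.62 ± 0.13, 4.48e-05) and the receptor phosphatase PTPRG (-0.82 ± 0.12, 5.61e-09) lower. These were 1 higher and 2 lower of 23 tested, where 3.75% of all genes were called higher and 2.05% lower. The LIMD1 call was lost with the GC and length trends taken out or without Ni-E replicate 1, and that of SEMA3B without Ni-E replicate 2.

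Of 19 genes listed as extracellular matrix and secreted, 9 of 16 tested were called higher in Ni-W and 0 lower, where 10.9% of all genes were called higher. At any fold 12 were higher, and the median over the 12 mapped genes was 0.64. In HCl3 7 of 15 were called higher and 0 lower (median 0.62), where 11.1% of all genes were called higher. The list was chosen with earlier results of these data known and holds COL8A1, so its share of calls does not test a class. It is also broader than its name. Those called in Ni-W included the intracellular proteins SPSB4 and LXN and the membrane proteins MME and IL1RAP. All of these except SPSB4 were also called in HCl3. COL7A1, the collagen of anchoring fibrils, measured 3.16 and 2.43 (UT), 1.34 and 3.02 (Ni-E), 10.3 and 9.50 (Ni-W) and 8.54 and 8.34 (HCl3), and its log2 fold change was 1.79 ± 0.14 for Ni-W (adjusted P value 1.43e-35) and 1.54 ± 0.13 for HCl3 (2.56e-29). ADAMTS9, a secreted metalloprotease, was listed at 0 in UT and Ni-E and at 0.22 and 0.15 (Ni-W), at least 15.4-fold higher (4.38e-06), with ADAMTS9-AS2 on the other strand. WNT5A, a WNT ligand, rose in HCl3 from 0.84 and 1.09 to 2.20 and 1.79 (1.01 ± 0.21, 1.47e-05), and the membrane peptidase MME from 2.03 and 2.23 to 5.80 and 5.68 (1.38 ± 0.14, 2.42e-21). These 4 genes lie in 2 different blocks, and COL7A1, ADAMTS9 and WNT5A rose within the short-arm block, where the HCl3 median was -0.34. In Ni-E 1 of 13 was higher, PCOLCE2, which enhances procollagen processing (1.15 ± 0.28, 0.000956), and 1 lower, the secreted glycoprotein FSTL1 (-0.67 ± 0.12, 1.61e-06). Of all genes 3.75% were called higher and 2.05% lower in Ni-E, and nothing about the list is drawn from 1 call each way. The PCOLCE2 call was lost without each of the 4 libraries in turn, that of ADAMTS9 in HCl3 without either HCl3 library, that of FSTL1 without Ni-E replicate 1 or with the GC and length trends taken out, and that of WNT5A without HCl3 replicate 1.

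Of 25 guidance and adhesion genes, 5 of 16 tested were called higher in Ni-W (ROBO1, CLSTN2, PLXND1, ITGA9 and ITGB5) and 1 lower, and in HCl3 6 of 18 higher and 0 lower, where 10.9 and 11.1% of all genes were called higher. The gene that fell was CLDN1, a tight junction protein, with 62.5 and 66.8 RPKM in UT, 83.0 and 89.8 (Ni-E), 35.4 and 36.8 (Ni-W) and 51.2 in both HCl3 libraries (-0.88 ± 0.10 in Ni-W, adjusted P value 5.49e-16). PLXND1, a semaphorin receptor of the middle block, had a log2 fold change of 0.85 ± 0.12 in Ni-W (2.66e-11) and was no longer called when the block median was removed. The integrin subunit ITGB5 was 8.46 and 9.55 in UT and between 15.6 and 18.4 in the other 6 libraries (0.89 ± 0.14 for Ni-E, 3.09e-08). NLGN1, a synaptic adhesion protein, was listed at 0 in UT and Ni-W and at 0.17 and 0.10 (HCl3), at least 9.31-fold above Ni-W (0.00019), a call lost without Ni-W replicate 1 or HCl3 replicate 1. The members followed no single order of groups. This list, too, was chosen with earlier results of these data known, and it holds ROBO1 and CLSTN2. Its counts thus describe its members and do not test a class.

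Of 24 long-arm genes often gained in squamous cancers, 20 were mapped, and SKIL, a repressor of SMAD signalling, was called higher (0.91 ± 0.13, adjusted P value 5.08e-11) and TNIK lower in Ni-W. That was 1 of 21 tested each way, where 10.9% of all genes were called higher and 4.83% lower. In HCl3 against UT 0 of 21 tested were called with DESeq2 or edgeR, 12 had an unadjusted P value under 0.05, 1 was higher and 9 lower at any fold, and the median was -0.22. At any fold 14.3% of all genes and 29.9% of the distal block were lower in that comparison, and the block median was -0.17. SOX2 and TP63 were listed at 0 in all 8 libraries. PIK3CA, the catalytic subunit of PI3 kinase, ranged from 12.2 to 17.6 RPKM without a call. The list of 14 long-arm genes for replication and DNA damage also held RPN1, CBLB, SIAH2, RYK and GATA2, which have other main roles. All 14 were mapped. In Ni-W 0 were called with DESeq2 or edgeR, 8 had an unadjusted P value under 0.05, and 5 were higher and 1 lower at any fold (median 0.17). At any fold 17.5% of all genes, 39.3% of the middle block and 16.2% of the distal block were higher in Ni-W. In HCl3 against Ni-W 0 were called with DESeq2 or edgeR, 10 had an unadjusted P value under 0.05, and 9 were lower at any fold, with 13 of 14 below the genome median (median -0.23). There 8.10% of all genes, 42.7% of the middle block and 15.9% of the distal block were lower at any fold, and the list has members in both blocks. Among the members were MCM2, of the replicative helicase, with 86.4 and 81.1 (UT), 114 and 101 (Ni-W) and 92.5 and 94.2 (HCl3), and TOPBP1, an activator of ATR, with 26.9 and 30.5, 35.8 and 37.5, and 29.9 and 28.8. Both lie in the middle block and had Ni-W libraries above those of UT and HCl3. In Ni-E GATA2, a transcription factor, was called lower (-0.66 ± 0.13, 1.30e-05), which was lost without Ni-E replicate 2. It was 1 of 14 tested, where 2.05% of all genes were called lower.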

How the data were processed

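RNA-Seq of 8 BEAS-2B libraries was analysed, 2 in each of 4 groups taken from the labels. The authors aligned reads to hg19 with STAR 2.4 (version per the labels), removed reads with several alignments and deposited a read count and an RPKM value per RefSeq gene and library from the BioWardrobe system. Each value covers the exons of a gene, and the use of strand was not given in the sources used here. Positions are those of the deposited files (hg19).

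Deposited counts of all 25411 genes were tested for each pair of groups with DESeq2 1.42.0 in R 4.3.3 (two-sided Wald test, Benjamini-Hochberg adjustment over all genes), each fit holding that pair alone. The methods of the study name DESeq2 without giving the samples of each fit. Genes were called at an adjusted P value under 0.05 and at least 1.5-fold. For the map, counts of 12055 genes averaging at least 50 reads were divided by median-of-ratios size factors, and log2 ratios of group means (pseudocount 1) were centred on their median. Ratios of chromosome 3 genes were cut into segments by least absolute deviations, with at least 15 genes per segment and a penalty of 3 times the estimated deviation times the natural log of the gene number, and of edges with equal cost the last was kept. Transcript GC content and length came from GENCODE, for 690 of the 694 mapped genes, and promoters from RefSeq (GRCh38.p14). Named genes are edge genes, members of 5 lists, and the 5 largest called changes each way per comparison among mapped genes whose libraries do not overlap between groups. The chromosome, the lists and the tests were chosen with earlier results of these data known. Alternatives included edgeR 4.0.16, and calls and segments were checked on simulated data with planted changes and planted segments. Figures were drawn with matplotlib 3.10.9. Some named genes are not reported here.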

Additional observations from a re-analysis of the deposited data

Results flagged for a closer look

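The difference between the washed-out groups was itself tested, and 47 of 842 chromosome 3 genes (5.58%) were called between HCl3 and Ni-W, near the 4.77% of all genes. The log2 fold changes of HCl3 against Ni-W were largest downward in ROBO1 (-2.02), CLSTN2 (-1.80), ABI3BP (-1.36), SLC9A9 (-1.33) and AGTR1 (-1.21), and largest upward in CAND2 (1.74), ADPRH (1.56), LRRC15 (1.35), TNIK (1.31) and PODXL2 (0.88). ROBO1, CLSTN2 and SLC9A9 were higher in both groups than in UT and higher in Ni-W than in HCl3, whereas TNIK was lower in Ni-W than in UT and near UT in HCl3. ROBO1, CLSTN2, ABI3BP, SLC9A9 and AGTR1 lie in the middle block, whose median in this comparison was -0.27, and so do ADPRH and PODXL2, which rose.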

How the results depend on the processing

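The 2 middle-block edges of Ni-W against UT were found under 17 settings of the map, the reported one included, the first with its next gene starting between 75.7 and 78.6 Mb and the second between 146 and 149 Mb, and the middle block ranged from 0.26 to 0.34. The first edge of HCl3 against UT ranged from 78.6 to 93.6 Mb over the 14 settings with 3 segments. It lay between C3orf38 and PROS1 on log2(RPKM + 1) and without UT replicate 1 or HCl3 replicate 1. For HCl3 against UT, the short-arm median moved from -0.34 to -0.35 with mean counts down to 10, -0.33 with at least 200, -0.30 on log2(RPKM + 1), -0.36 without the GC and length trends and -0.26 over genes that no comparison called, and ranged from -0.35 to -0.33 without each replicate. For HCl3 against Ni-W it moved from -0.26 to -0.23 on log2(RPKM + 1) and -0.23 over uncalled genes, with -0.26 to -0.24 without each replicate. The middle block of that comparison moved from -0.27 to -0.23 on log2(RPKM + 1) and to -0.22 without the GC and length trends. Without these trends the distal block moved from -0.10 to -0.05. The number of segments became 5 in Ni-E against UT with the penalty halved or with least squares, 2 in HCl3 against UT with mean counts down to 10, with the penalty doubled or without HCl3 replicate 2, and 4 in HCl3 against Ni-W with least squares. The cause of these differences was not tested. Block medians under 0.1 in size changed sign under some settings, as in Ni-E without the GC and length trends and in the middle block of HCl3 without single replicates.

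At 2-fold, 21, 73, 75 and 24 chromosome 3 genes were called in Ni-E, Ni-W and HCl3 against UT and HCl3 against Ni-W, which follows from the stricter limit. Without each replicate, counts ranged from 19 to 34, 77 to 112, 104 to 164 and 24 to 37. They were lowest without Ni-E replicate 1 (19), Ni-W replicate 1 (77), HCl3 replicate 2 (104) and HCl3 replicate 2 (24), and the lone library of a group was then assumed to vary like the other group. Other settings stayed within 1.5 times the main count, with 55, 139, 180 and 68 genes by edgeR. BAP1 in HCl3 against UT turned from -0.23 to 0.11 when the segment median was removed. With the segment median removed, the share of calls that were lower went from 53.5 to 20.5% in HCl3 against UT and from 66.0 to 32.6% in HCl3 against Ni-W. The turn of BAP1 and the fall of these shares follow from subtracting a median taken from the same contrast. Of 64 named changes, 40 kept their call under each setting.

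The repeat suffix of the labels was the only hint of a pairing. Deviations of same-suffix libraries had an r across 13856 genes of -0.103 in Ni-E and UT, 0.212 in Ni-W and UT, -0.145 in HCl3 and UT and -0.051 in HCl3 and Ni-W, and across 790 genes of chromosome 3 of 0.117, 0.203, 0.251 and -0.155. With the suffix as a block 29, 109, 122 and 33 genes were called, and the crossed pairing, added after the data were seen, gave 39 in Ni-E against UT and 131 in HCl3 against UT. The block ended the calls of CLSTN2 in HCl3 against UT, ADAMTS9 in Ni-W against UT, NLGN1 in HCl3 against Ni-W and ETV5, LINC01279 and PCOLCE2, among others, in Ni-E against UT, and the middle-block median of Ni-W with it was 0.32 and the short-arm median of HCl3 against UT -0.34.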
